A study of Mus musculus with 25 samples.

Results

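Hours 12 to 24 of calorie restriction (CR) were examined in whole mouse lung by setting arrays labelled CR 24 h against arrays labelled CR 12 h. These were 4 of the 25 samples of the series, chosen by their titles, with 2 arrays in each group. All mice were C57BL/6, an inbred laboratory strain, and RNA was hybridised to MG-U74Av2 oligonucleotide arrays. Both groups had their food cut by 2/3, and the lungs were taken 12 h or 24 h after the cut began. The series title places these lungs in a time course of the loss of alveoli, the air sacs where gas is exchanged. The 24 h and 12 h groups differ in the time of day as well as in the length of restriction, and the sources used here do not give the clock hour. Fed lungs at 12 h (2 arrays) and 0 h give the same 2 times of day by the labelled hours. By the labels 0 h precedes 12 h, so fed 0 h matches CR 24 h only by time of day, which is inferred. A drift over hours that does not repeat daily would enter the fed change with reversed sign, and was not tested. Fed 0 h came as number 1 and number 2, with 2 arrays each. Their labels describe constant feeding and the 2/3 cut in the same entry, so how these controls were fed is not certain. Letters a and b mark the arrays of a group. Whether they were separate animals is not stated. The p-values thus measure only the spread between arrays a and b, pooled over all groups of the fit, which may be technical.

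Mammalian cells keep time with a loop in which BMAL1, encoded by Arntl, pairs with CLOCK and switches on Per, Cry, Nr1d1, Nr1d2 and the PAR-domain genes Dbp, Tef and Hlf, while the REV-ERB proteins encoded by Nr1d1 and Nr1d2 repress Arntl in return. The lung clock is known to be set by signals from the whole body, among them feeding time, glucocorticoid hormone and body temperature. Heat shock genes rise and the cold-inducible RNA-binding protein gene Cirbp falls with a warmer body, so that both follow the daily temperature cycle in many tissues. Fasting raises glucocorticoids and moves cells from glucose to fatty acids as fuel.

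The 4 arrays were alike in median and range. Their deposited median signals lay between 312.0 and 329, and their highest deposited signals between 74440.5 and 99043. Across tested probe sets, arrays a and b correlated at r = 0.949 within CR 12 h and at r = 0.949 within CR 24 h, and the 4 pairs across the groups at r = 0.935 to 0.940. Array a of CR 24 h had an actin 3'/5' signal ratio, a measure of RNA integrity, of 2.77, against 1.80 to 2.04 on the other 3 arrays. The fed 0 h number 1 arrays stood apart, with r = 0.852 to 0.876 against the 4 CR arrays. Their GAPDH 3'/5' ratios, a second measure of RNA integrity, were 1.85 and 1.76, against 1.12 to 1.49 on the 4 CR arrays. Those of fed 12 h were 1.11 and 1.66, and those of fed 0 h number 2 were 2.02 and 1.79. The highest deposited signals were 53258 and 54315 for fed 0 h number 2, a shorter range. They were 93445 and 86942 for number 1 and 87542 and 98445 for fed 12 h. Number 1 was made the main fed comparison because of this range. The surfactant gene Sftpc, which marks alveolar type II cells, read 94953 and 79117 at 12 h and 90893 and 75148 at 24 h, as the label lung requires. A level here is the signal of a probe set after scaling each array to a common median, and values below 80.4 were raised to that floor for the tests.

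Of 7440 probe sets tested, 102 (1.37%) differed between CR 24 h and CR 12 h at an adjusted p under 0.05 in the limma fit. There were 66 higher at 24 h (0.887%) and 36 lower (0.484%), and 92 of the 102 carried 1 gene symbol. The rises measured 0.58 to 2.72 on the log2 scale with a median of 0.93, and 27 of the 66 were over 2-fold. The sizes of the falls ran from 0.58 to 2.70 with a median of 1.11, and 22 of the 36 were over 2-fold. The median change of all tested probe sets was 0.06. The balance of the directions depended on the scaling. With the deposited values left as they were, 52 probe sets rose and 58 fell, and with quantile normalisation 52 rose and 56 fell, so that 47.3% and 48.1% of the calls were rises in place of 64.7%. The count was 89 without array a of CR 24 h, the array with the high actin ratio, 48 without array a of CR 12 h, 64 without array b of CR 12 h and 55 without array b of CR 24 h. In total, 21 of the 102 calls, 13 rises and 8 falls, held when each of the 4 arrays was left out in turn. Treating both fed 0 h numbers as 1 group of 4 arrays widened the shared estimate of the spread and left 18 of the 102 calls. A fit of the 4 arrays alone called 1 probe set, so the counts rest on the spread shared with the other groups.

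**Figure D1:**
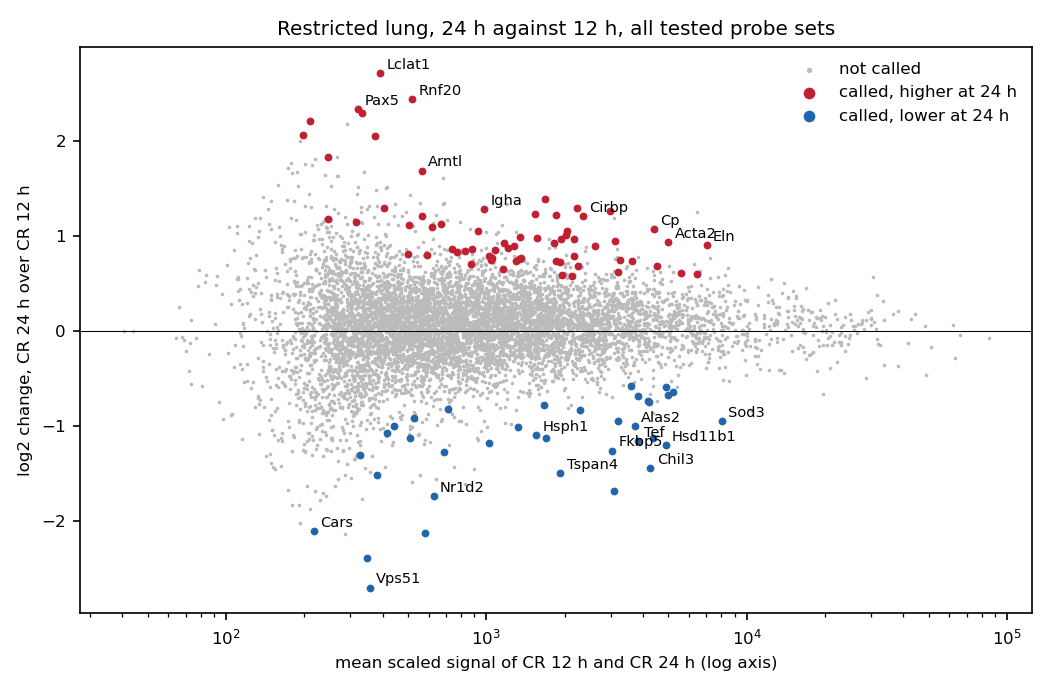
Each point is a probe set, with the mean scaled signal of CR 12 h and CR 24 h on a log axis and the log2 change from 12 h to 24 h on the vertical axis. Red and blue points are the 66 higher and 36 lower calls; the dim end at the left holds the largest changes, such as Lclat1 and Vps51, and bright calls such as Eln and Sod3 have smaller ones.

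Clock genes were among the clearest changes. Arntl, the positive arm of the loop, rose and its repressor Nr1d2 fell, each by over 3-fold. Tef and Bhlhe40, which BMAL1 and CLOCK switch on, fell as well. Counted with 1 probe set per gene, 57 of all 5706 genes rose (0.999%) and 30 fell (0.526%), the background for every list below. Among the 13 measured core clock genes 1 rose (Arntl) and 2 fell (Nr1d2 and Bhlhe40). Among the 11 measured clock output genes 1 rose (Pdk4) and 2 fell (Tef and Tspan4). The median log2 change was -0.30 in the core list and -0.29 in the output list, against 0.07 over all 5706 genes.

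Arntl read 239 and 299 at 12 h and 861 and 863 at 24 h. Both late arrays were far above both early ones, a rise of 3.23-fold (95% confidence interval 2.31 to 4.50), with log2 change 1.69 (SE 0.23, adjusted p = 0.000538). Nr1d2, which encodes REV-ERB beta, read 968 and 959 at 12 h against 279 and 301 at 24 h, a fall of 3.33-fold (2.24 to 4.95; adjusted p = 0.00166). The 2 genes thus moved in opposite directions with arrays a and b close together. Tef, a PAR-domain transcription factor, read 5306 and 5188 at 12 h and 2707 and 2046 at 24 h, with log2 change -1.16 (SE 0.23, adjusted p = 0.0146). Bhlhe40, which encodes DEC1, a repressor within the loop, read 728 and 652 at 12 h and 323 and 415 at 24 h, with log2 change -0.91 (SE 0.22, adjusted p = 0.0456). The groups did not overlap in either gene. Tspan4, a tetraspanin that is placed here with the clock outputs, read 3103 and 2579 at 12 h and 1108 and 903 at 24 h, with log2 change -1.50 (SE 0.19, adjusted p = 0.000315).

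The other period and cryptochrome genes did not pass the test. Per2, a repressor of the loop, read 398 and 491 at 12 h and 109 and 209 at 24 h without overlap, with log2 change -1.55 (SE 0.41, adjusted p = 0.0679). Per1 had log2 change -0.53 (SE 0.26, adjusted p = 0.342), Per3 log2 change -0.30 (SE 0.25, adjusted p = 0.596) and Cry1 log2 change -0.48 (SE 0.19, adjusted p = 0.215). Nr1d1, the partner of Nr1d2, had the opposite sign, with readings of 537 and 674 at 12 h and 976 and 961 at 24 h and an adjusted p of 0.191. Clock, whose protein pairs with that of Arntl, had log2 change 0.58 (SE 0.21, adjusted p = 0.181). Dbp was dim on these arrays, with 99.8 and 222 at 12 h and 73.7 and 22.4 at 24 h, where 2 of the 4 readings were below the floor. The calls of Arntl, Nr1d2 and Tspan4 held without each array. Tef lost its call without any but array a of CR 24 h (adjusted p up to 0.112) and Bhlhe40 without any 1 of the 4 arrays (up to 0.19).

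Heat shock genes fell and Cirbp rose. Of 22 measured genes in the heat shock and cold-inducible list, 5 fell (Hspa1b, Hsph1, Hspa8, Dnaja1 and Serpinh1) and Cirbp rose, against 0.526% and 0.999% of all genes. The median log2 change was -0.42. In 15 of the 22 both arrays of 24 h lay below both arrays of 12 h, which was so for 17% of all tested probe sets. In 3 of the 22 both lay above, against 26.7% of all.

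The upstream sequences of Hspa1b, Dnaja1 and Tef are shown because these genes fell in the 2 groups above, heat shock and clock, and each carries the short motif its group is known for. Each run is the 250 bases before the first listed start of the gene in RefSeq (GRCm38.p6), on the strand of the gene. Capitals mark GAANNTTC, a pair of the inverted units that heat shock factor binds, in Hspa1b and Dnaja1, and CACGTG, the E-box that BMAL1 and CLOCK bind, in Tef. Hspa1b is at chr17:34959239-34959488 on the minus strand, Dnaja1 at chr4:40722218-40722467 on the plus strand and Tef at chr15:81802423-81802672 on the plus strand.
Hspa1b: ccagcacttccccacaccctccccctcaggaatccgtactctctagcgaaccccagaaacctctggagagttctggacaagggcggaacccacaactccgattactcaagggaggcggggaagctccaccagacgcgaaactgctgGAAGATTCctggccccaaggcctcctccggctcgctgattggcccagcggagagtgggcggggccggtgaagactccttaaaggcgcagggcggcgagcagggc
Dnaja1: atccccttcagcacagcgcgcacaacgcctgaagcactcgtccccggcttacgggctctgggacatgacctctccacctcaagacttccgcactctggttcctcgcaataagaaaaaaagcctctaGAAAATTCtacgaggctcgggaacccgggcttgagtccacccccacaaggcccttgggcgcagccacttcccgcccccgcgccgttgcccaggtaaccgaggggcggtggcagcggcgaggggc
Tef: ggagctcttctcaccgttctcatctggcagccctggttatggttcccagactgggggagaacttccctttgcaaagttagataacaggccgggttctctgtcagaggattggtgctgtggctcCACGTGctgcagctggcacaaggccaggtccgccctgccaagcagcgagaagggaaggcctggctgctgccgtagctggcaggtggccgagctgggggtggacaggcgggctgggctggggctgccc
In Hspa1b the match began 104 bases before the start, in Dnaja1 124 bases and in Tef 127 bases before it. Both motifs read the same on either strand, and no printed run held the other motif. GAANNTTC was found in 6.69% of the 32851 upstream sequences listed, in 4.93% of those of measured genes, in 5 of the 19 heat shock and cold-inducible genes that had one, and in 2 of the 23 fallen and 2 of the 45 risen genes. CACGTG was found in 6.02% of the listed sequences, in 9.1% of those of measured genes, in 2 of the 10 core clock and 1 of the 9 clock output genes that had one, and in 5 of the 23 fallen and 3 of the 45 risen genes. These matches are a description of the sequence only.

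Hspa1b, which encodes the stress-inducible chaperone HSP70, read 1026 and 925 at 12 h and 365 and 446 at 24 h. The near-identical Hspa1a may share this signal. Both late arrays were below both early ones, a fall of 2.42-fold (1.62 to 3.60; adjusted p = 0.0266). Hsph1, an HSP110 exchange factor for HSP70, read 2174 and 2052 at 12 h and 1010.2 and 969 at 24 h, with log2 change -1.09 (SE 0.20, adjusted p = 0.00709). Hspa8, the constitutive HSP70, read 6557 and 6081 at 12 h and 4067 and 4052 at 24 h, with log2 change -0.64 (SE 0.14, adjusted p = 0.0281). Dnaja1, a J-domain co-chaperone, read 4446 and 5015 at 12 h and 2904 and 2963 at 24 h, with log2 change -0.69 (SE 0.15, adjusted p = 0.0251). Arrays a and b agreed closely in these genes, and the falls were smaller in the abundant Hspa8 and Dnaja1. Serpinh1 encodes HSP47, a collagen chaperone of the endoplasmic reticulum, and read 5346 and 5104 at 12 h and 3796 and 2546 at 24 h, with log2 change -0.75 (SE 0.18, adjusted p = 0.0465). St13, an HSP70-interacting protein outside the list, was also called, from 919 and 896 at 12 h to 522 and 508 at 24 h (adjusted p = 0.0465).

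Cirbp read 1376 and 1450.4 at 12 h and 3774 and 2823 at 24 h. It rose 2.31-fold (1.87 to 2.86; adjusted p = 0.000256). The call of Cirbp held without each array. Hspa1b, Hspa8, Dnaja1 and St13 lost their calls without any 1 of the 4 arrays (adjusted p up to 0.134, 0.146, 0.144 and 0.156 in that order), Hsph1 without array a of CR 12 h or array b of CR 24 h (up to 0.0619), and Serpinh1 without any but array a of CR 24 h (up to 0.326). In the list of the unfolded protein response, which acts within the endoplasmic reticulum, 1 of 16 genes fell, Herpud1, which serves protein degradation there, from 5335 and 5117 to 3312 and 2958 with log2 change -0.74 (SE 0.13, adjusted p = 0.00505). Ddit3, the stress factor CHOP, had log2 change -0.76 (SE 0.25, adjusted p = 0.132). Herpud1 lost its call without array a of CR 12 h or array b of CR 24 h (adjusted p up to 0.0587).

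**Figure D2:**
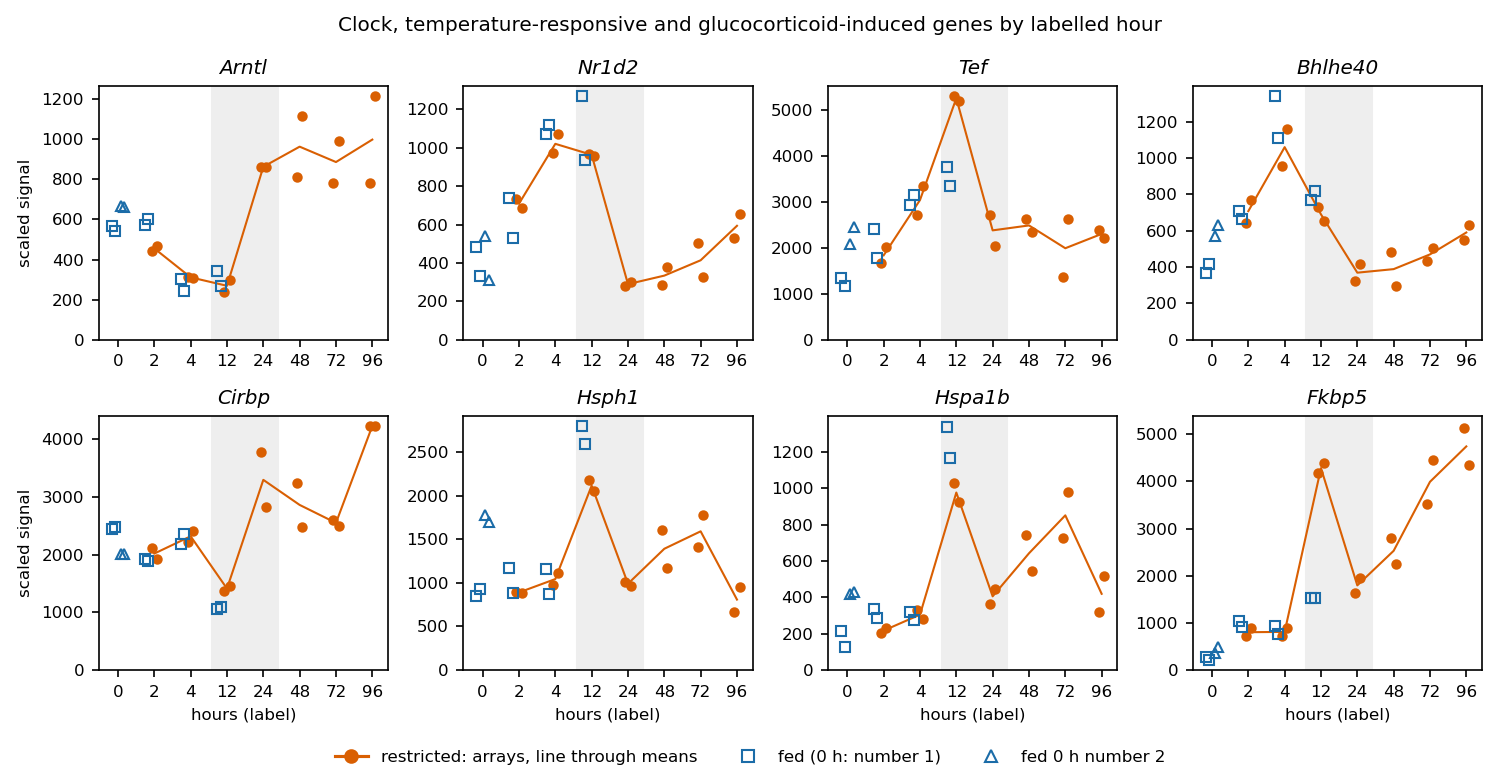
Scaled signal of 8 called genes on every array by labelled hour (hours are evenly spaced, not to scale); filled circles are restricted lungs with a line through the means, squares fed lungs and triangles fed 0 h number 2, and the grey band holds 12 h and 24 h. Arntl and Cirbp are low at 12 h and high at 24 h, the other 6 genes the reverse, and Fkbp5 is above its 2 h readings at both hours.

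Glucocorticoid-induced genes gave 1 call in each direction. Of 25 measured genes 1 rose (Pdk4) and 1 fell (Fkbp5), with a median log2 change of -0.07. Fkbp5 encodes a co-chaperone of the glucocorticoid receptor and is among the most responsive targets of the hormone. It read 4178 and 4382 at 12 h and 1641 and 1949.7 at 24 h, a fall of 2.39-fold (1.80 to 3.18; adjusted p = 0.00161), and its level at 24 h was still above the 717 and 889 at 2 h and 724 and 895 at 4 h, and it read 5132 and 4348 at 96 h. Zbtb16, another strong target, read 8224 and 6579 at 12 h and 6237 and 7268 at 24 h with overlap (log2 -0.13, adjusted p = 0.86). The metallothionein Mt1 had log2 change -0.52 (SE 0.19, adjusted p = 0.179), and Anxa1, an anti-inflammatory annexin, had log2 change 0.38 (SE 0.14, adjusted p = 0.171). Hsd11b1, which regenerates active glucocorticoid inside cells, fell from 6496 and 7109 at 12 h to 3302 and 2646 at 24 h, with log2 change -1.20 (SE 0.19, adjusted p = 0.00207). The calls of Fkbp5 and Hsd11b1 held without each array.

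A few genes of the fatty acid fuel switch rose. Of 19 measured genes for fatty acid oxidation and PPAR targets, 3 rose (Acot1, Cd36 and Pdk4; 0.999% of all genes rose), 0 fell, and the median log2 change was 0.16. Pdk4, the kinase that shuts pyruvate out of the mitochondrial cycle, read 748 and 860.0 at 12 h and 1423 and 1633 at 24 h, with log2 change 0.93 (SE 0.21, adjusted p = 0.0352). It had read 363 and 301 at 2 h and read 2424 and 2016 at 48 h, so that the 24 h reading lay on a climb. Acot1, a cytosolic thioesterase of long-chain acyl-CoA, read 1285 and 1324 at 12 h and 2736 and 2385 at 24 h, with log2 change 0.97 (SE 0.18, adjusted p = 0.00736). Cd36, a fatty acid transporter, read 785 and 716 at 12 h and 1285 and 1306 at 24 h, with log2 change 0.79 (SE 0.17, adjusted p = 0.0266). The groups did not overlap in any of the 3 genes. Slc25a20, the mitochondrial acylcarnitine carrier, had log2 change 0.60 (SE 0.17, adjusted p = 0.0874).

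In the list of lipogenic and fat cell genes 1 of 16 rose. This was Gpd1, glycerol-3-phosphate dehydrogenase, from 705 and 1117 to 2099 and 1473 with log2 change 0.99 (SE 0.23, adjusted p = 0.0359). Lipe, hormone-sensitive lipase, read 601 and 851 at 12 h and 1425 and 1489 at 24 h without passing (adjusted p = 0.0695). Thrsp, which promotes lipid synthesis, lay the other way, 695 and 659.9 against 412 and 247 (adjusted p = 0.0651). Outside these lists Lias, which makes the lipoic acid cofactor of pyruvate dehydrogenase, rose from 621 and 630.5 to 1105 and 1182 (adjusted p = 0.0155). Pdk4 and Cd36 lost their calls without any 1 of the 4 arrays (adjusted p up to 0.163 and 0.136 in that order), Acot1 and Gpd1 without array a of CR 12 h or array a of CR 24 h (up to 0.066 and 0.251), and Lias without any but array a of CR 24 h (up to 0.0891).

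Several genes of the lung's connective tissue and vessel wall were higher at 24 h. Col1a1, the main chain of fibrillar type I collagen, read 1439 and 1225 at 12 h and 2647 and 2853 at 24 h. It rose 2.07-fold (1.68 to 2.55; adjusted p = 0.000611). This probe set is not the brightest one of the gene, which the list counts use and which was not called. The log2 change of the brightest ran from -0.14 to 0.61 as single arrays were left out. A probe set of Col1a2, the other chain of type I collagen, had log2 -0.27 (adjusted p = 0.536). Eln, which encodes elastin, the recoil protein of alveolar walls, read 4821 and 4972 at 12 h and 8761 and 9553 at 24 h, with log2 change 0.90 (SE 0.16, adjusted p = 0.0059), while its second, dim probe set read 231 and 106 and 239 and 363 and did not pass (adjusted p = 0.365). Acta2, smooth muscle actin, read 3819.8 and 3048 at 12 h and 5832 and 7293 at 24 h, with log2 change 0.93 (SE 0.17, adjusted p = 0.00709). In each of these 3 genes both late arrays lay above both early ones. Emcn, the endothelial sialomucin endomucin, read 1354 and 1315 at 12 h and 2549.6 and 2851 at 24 h, with log2 change 1.01 (SE 0.19, adjusted p = 0.0086), and a second probe set had log2 0.32 (adjusted p = 0.422). Gja1, the gap junction protein connexin 43, rose from 2341 and 2505 to 4182 and 3972 with log2 change 0.75 (SE 0.16, adjusted p = 0.0263). Its probe set carries the suffix that marks probes shared within a gene family. The call of Col1a1 held without each array. Eln lost its call without array a of CR 12 h or array b of CR 24 h (adjusted p up to 0.0578), Acta2 without array b of CR 12 h or array b of CR 24 h (up to 0.0904), Emcn without any but array a of CR 24 h (up to 0.0747), and Gja1 without any 1 of the 4 arrays (up to 0.133).

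The lists these genes belong to gave 1 call or 0 in each direction. Elastic fibre genes counted 1 rise of 12 with a median of 0.07, smooth muscle and pericyte genes 1 rise of 13 with a median of 0.06, and endothelial genes 1 rise of 27 with a median of 0.20. In the endothelial list 21 of 27 changes were positive, against 3341 of all 5706. Both 24 h arrays lay above both 12 h arrays in 11 of the 27 and below them in 6. Among all 5706 genes this was so for 1587 and 936. In the endothelial list Vwf, von Willebrand factor, read 6225 and 4537 at 12 h and 8700.0 and 9502 at 24 h (adjusted p = 0.0716) and Kdr, the VEGF receptor, 1357 and 1207 and 2116 and 2643 (adjusted p = 0.11). Lyve1, a lymphatic marker, lay lower at 24 h, 3747 and 3677 against 1899 and 2783 (adjusted p = 0.0902). Collagen and matrix genes had 0 rises and 1 fall of 25 by their brightest probe sets, with a median of -0.07. Both 24 h arrays lay above both 12 h arrays in 4 of the 25 and below them in 9, against 26.7% and 17% of all tested probe sets. The fall was Col6a1, a beaded-filament collagen, from 5657 and 6049 to 3646 and 4165 with log2 change -0.59 (SE 0.13, adjusted p = 0.0289). Ccn2, a matrix-inducing growth factor and immediate early gene, fell from 4046 and 4391 to 1886 and 2533 with log2 change -0.95 (SE 0.21, adjusted p = 0.0281), the one call among 22 immediate early genes. Col6a1 lost its call without any 1 of the 4 arrays (adjusted p up to 0.146) and Ccn2 without any but array b of CR 24 h (up to 0.159).

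Among 19 matrix proteases and inhibitors, Timp1 fell and Adam8 rose. Timp1, an inhibitor of matrix metalloproteinases, read 2477 and 2156 at 12 h and 904 and 1239 at 24 h, with log2 change -1.13 (SE 0.27, adjusted p = 0.0416). Adam8, a membrane protease, read 51.0 and 60.2 at 12 h, below the floor, and 305 and 372 at 24 h, a rise of at least 4.19-fold (adjusted p = 0.0331). Mmp3, stromelysin, read 919 and 561 and 1567 and 1547 without passing (adjusted p = 0.0586). Of 25 genes of retinoid, Notch and alveologenesis signalling 0 were called, with a median of 0.24. Fzd2, a Wnt receptor outside that list, rose from 281 and 405 to 655 and 928 with log2 change 1.21 (SE 0.26, adjusted p = 0.0268). Timp1 and Adam8 lost their calls without any 1 of the 4 arrays (adjusted p up to 0.187 and 0.141 in that order) and Fzd2 without array a of CR 12 h or array b of CR 24 h (up to 0.175).

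Immune genes gave single large changes. Pax5, the transcription factor that holds B cell identity, read 117 and 95.4 at 12 h and 598 and 479.8 at 24 h. It rose 5.07-fold (3.47 to 7.40; adjusted p = 9.44e-05). The 12 h readings were the low ones, since Pax5 had read 548 and 557 at 2 h, 722 and 612 at 4 h and 395 and 487 in fed lung at 12 h. Igha, the heavy chain constant region of IgA, read 533 and 615 at 12 h and 1440.2 and 1346 at 24 h, with log2 change 1.28 (SE 0.19, adjusted p = 0.00134). For Igha the 24 h readings lay above the 682 and 554 at 2 h and the 713 and 577 at 48 h. They lay below the 2182 and 1779 at 72 h. The calls of Pax5 and Igha held without each array. Pax5 was the 1 call among 15 B cell genes, whose median was 0.18. Cd79b, a chain of the B cell receptor, read 475 and 593 at 12 h and 1085 and 770.4 at 24 h (adjusted p = 0.162). A positive change was seen in 3341 of all 5706 genes and in 12 of these 15 B cell genes. Their summed signal was 28290 and 33856 at 12 h and 22619 and 25917 at 24 h, a fall that lies in Cd74, an MHC class II gene that other cells express too. Without Cd74 the other 14 genes summed to 6254 and 7742 at 12 h and 8686 and 9343 at 24 h. Pax5 is 1 of these 14, so their rise is in part its own. The part of B cell number in the result was not tested. Fewer cells of a type and less RNA per cell cannot be told apart in whole lung.

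Hdc, the enzyme that makes histamine and marks mast cells and basophils, read 1009 and 1098 at 12 h and 2129.8 and 2033 at 24 h. It rose 1.98-fold (1.59 to 2.46; adjusted p = 0.00135). The call of Hdc held without each array. None of the other 3 measured genes of the mast cell, basophil and eosinophil list was called, and the mast cell tryptase Tpsb2 had log2 0.34, adjusted p = 0.628. Alas2, the first enzyme of haem synthesis in red cell precursors, read 4473 and 5442 at 12 h and 2281 and 2679.6 at 24 h, a fall of 2.00-fold (1.60 to 2.49; adjusted p = 0.00139). The call of Alas2 held without each array. It was the 1 call among 9 erythroid genes. The summed erythroid signal, which includes Alas2, was 95954 and 94330.5 at 12 h and 79505 and 73949.5 at 24 h. The part of blood content in the result was not tested. The globin gene Hba-a1 had log2 -0.29, adjusted p = 0.275.

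Of 23 measured macrophage and monocyte genes, Chil3 fell, 0 rose, the median was -0.39, and in 10 both 24 h arrays lay below both 12 h arrays (17% of all probe sets), against 2 with both above (26.7% of all). The change was positive in 7 of the 23, against 3341 of all 5706 genes. Chil3, a chitinase-like protein secreted by alveolar macrophages, read 5931 and 6426 at 12 h and 3034 and 1692 at 24 h, with log2 change -1.45 (SE 0.34, adjusted p = 0.0383). Mrc1, the mannose receptor, read 296 and 350.0 at 12 h and 227 and 125 at 24 h (adjusted p = 0.0969). C1qa, of the complement C1q complex, read 1532 and 2055 and 1196 and 1027 (adjusted p = 0.0639), and Ctss, cathepsin S, 5230.0 and 6489 and 4564 and 3261 (adjusted p = 0.0969). Cd302, a C-type lectin of myeloid cells that is in no list here, fell from 725 and 677 to 316 and 326 with log2 change -1.13 (SE 0.19, adjusted p = 0.00342). The call of Cd302 held without each array. Chil3 lost its call without any but array a of CR 24 h (adjusted p up to 0.256). The summed macrophage signal was 65495 and 71972 at 12 h and 62129 and 53385 at 24 h. Hsd11b1 and Chil3 shared a course: both were also low in CR 48 h (2682 and 3656; 2891 and 2925) and in fed 0 h number 2 (1759.7 and 2606; 1175 and 3181), and high in fed 0 h number 1 (8955 and 7993; 14694 and 14537). The part of macrophage content in these results was not tested.

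Antigen presentation and cytokine lists gave few calls. Of 13 MHC class II pathway genes 1 fell, Ifi30, a lysosomal thiol reductase, from 2212 and 1967 to 1394 and 1066 with log2 change -0.78 (SE 0.19, adjusted p = 0.0465), and the median was -0.25. The invariant chain gene Cd74 read 22036 and 26114 at 12 h and 13933 and 16574 at 24 h (adjusted p = 0.0791). Of 28 chemokine, interleukin and receptor genes 2 rose. Il6st, the gp130 receptor chain of the IL-6 family, rose from 2961 and 2497 to 4499 and 4599 with log2 change 0.74 (SE 0.15, adjusted p = 0.0203), whereas its second probe set had log2 -0.38 (adjusted p = 0.641). Cxcl5, a neutrophil attractant made by alveolar epithelium, read 23.7 and 75.8 at 12 h, below the floor, and 369 and 376 at 24 h, a rise of at least 4.64-fold (adjusted p = 0.0195). Csf3, the granulocyte growth factor, lay the other way, 341 and 371 against 109.6 and 97.5, without passing (adjusted p = 0.0799). Of 9 T cell, 5 cytotoxic cell, 9 neutrophil and 24 interferon response genes 0 were called. Ifi30 lost its call without any but array a of CR 24 h (adjusted p up to 0.265), Il6st without any but array a of CR 12 h (up to 0.146), and Cxcl5 without any 1 of the 4 arrays (up to 0.0892).

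**Figure D3:**
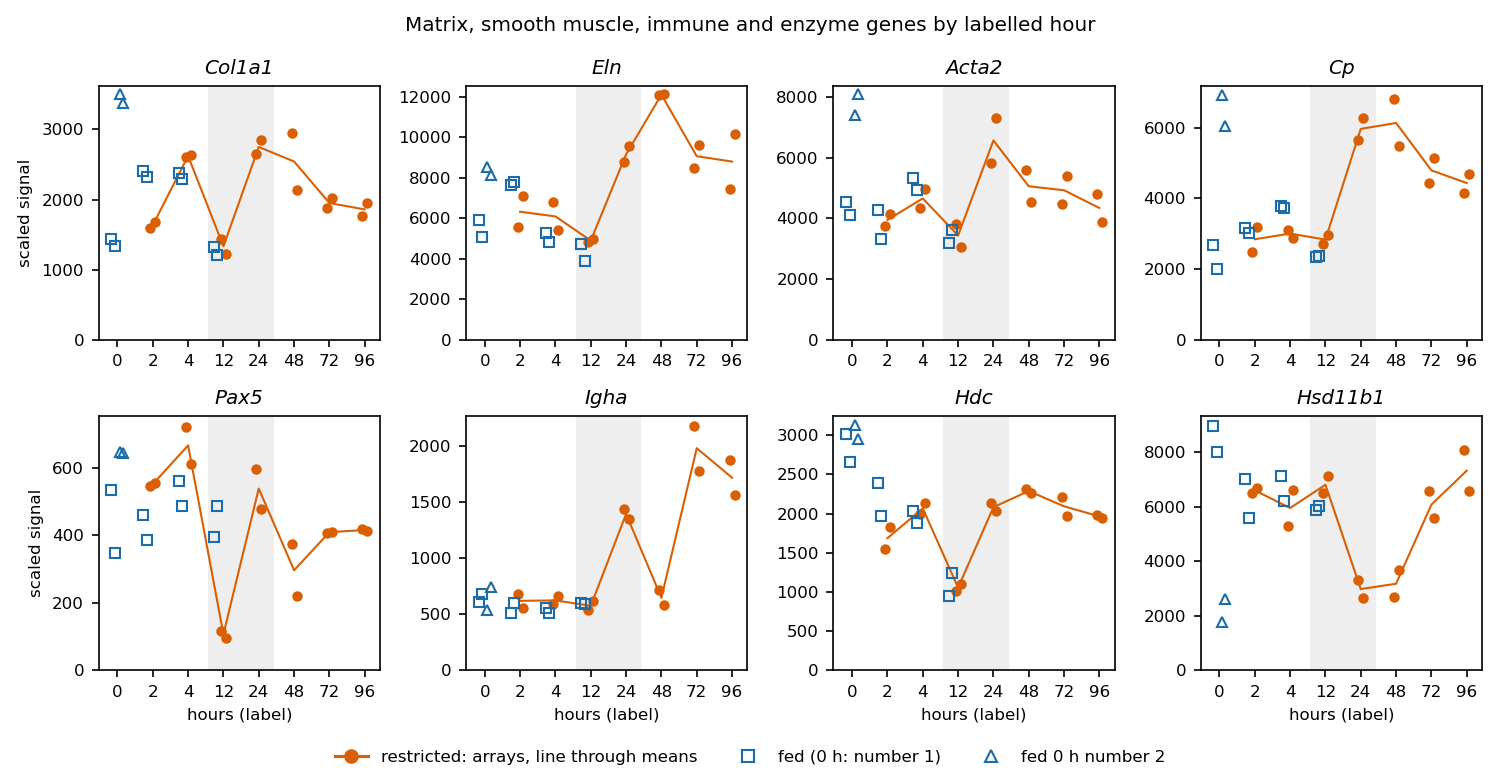
Scaled signal of 8 called genes on every array by labelled hour (evenly spaced, not to scale), with filled circles for restricted lungs and a line through their means, squares for fed lungs and triangles for fed 0 h number 2; the grey band holds 12 h and 24 h. Col1a1, Eln, Pax5 and Hdc are lower at 12 h than at 4 h and 24 h, Acta2, Cp and Igha are higher at 24 h than at 12 h, and Hsd11b1 is lower.

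Enzymes that handle foreign compounds, oxidants and metals changed singly. Cp, ceruloplasmin, the copper-carrying ferroxidase, read 2718 and 2954 at 12 h and 5652 and 6288 at 24 h. It rose 2.10-fold (1.67 to 2.65; adjusted p = 0.00132). Sod3, the extracellular superoxide dismutase of vessel walls, fell from 9956 and 11037 to 4479 and 6630.0 with log2 change -0.94 (SE 0.22, adjusted p = 0.0359). Gsta3, a glutathione transferase, fell from 1998 and 1543 to 969.9 and 782 with log2 change -1.01 (SE 0.18, adjusted p = 0.00464). Sod3 and Gsta3 were the 2 calls among 40 antioxidant genes, whose median was 0.02. Cyp1a1, the inducible P450 of the aryl hydrocarbon receptor, fell from 1410.3 and 1416 to 589 and 663 (adjusted p = 0.038). Aldh3a1, an aldehyde dehydrogenase induced by the same receptor, rose from 1767 and 1698 to 2898 and 2658 (adjusted p = 0.0496), so that the 2 calls among 20 genes of that list had opposite signs. Abcc3, an export pump for conjugates, rose from 1786 and 1847 to 3360.2 and 3422 (adjusted p = 0.0268), and Akr1b8, an aldose reductase relative, from 1268 and 1524 to 2217 and 2415 (adjusted p = 0.0257). The call of Cp held without each array. Sod3 lost its call without any but array b of CR 24 h (adjusted p up to 0.205), Gsta3 without array a of CR 12 h or array b of CR 24 h (up to 0.0822), Akr1b8 without any but array b of CR 12 h (up to 0.159), and Cyp1a1, Aldh3a1 and Abcc3 without any 1 of the 4 arrays (up to 0.138, 0.183 and 0.128).

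Epithelial genes that rose included Slc12a2, the sodium, potassium and chloride cotransporter NKCC1 that drives fluid secretion, from 3325 and 3614 to 4859.5 and 6363 (adjusted p = 0.047). Krt18, the keratin of simple epithelia, rose from 1353 and 1155 to 2637 and 2136 (adjusted p = 0.0106), and Tmprss2, an epithelial surface protease, from 871 and 928 to 1254 and 1589 (adjusted p = 0.0488). Pla2g1b, a secreted phospholipase, fell from 4018 and 4577 to 2728 and 3036 (adjusted p = 0.0456). The marker lists of the epithelium itself gave 0 calls among 13 surfactant and alveolar type II genes, 6 alveolar type I genes and 13 club and ciliated cell genes, with medians of -0.07, 0.10 and 0.06. The surfactant protein gene Sftpb read 35635 and 31579 at 12 h and 20970.4 and 27168 at 24 h (adjusted p = 0.255). Slc12a2 and Tmprss2 lost their calls without any but array a of CR 24 h (adjusted p up to 0.287 and 0.277 in that order), Krt18 without array b of CR 12 h or array a of CR 24 h (up to 0.0935), and Pla2g1b without any 1 of the 4 arrays (up to 0.235).

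RNA-processing and chromatin genes were among the rises that no list here covers. Srsf5, a splicing factor, read 1385 and 1188 at 12 h and 3618 and 2753 at 24 h, with log2 change 1.30 (SE 0.20, adjusted p = 0.00135). Prpf38b, another splicing factor, rose from 411 and 431 to 874 and 966 with log2 change 1.13 (SE 0.22, adjusted p = 0.0145). The RNA-binding proteins Hnrnpd and Hnrnpk had log2 changes of 0.89 (adjusted p = 0.0397) and 0.73 (adjusted p = 0.0397). H1f2, a linker histone, rose from 2106 and 2154 to 4333 and 3924 with log2 change 0.95 (SE 0.17, adjusted p = 0.0059), and Kmt2e, a chromatin regulator, from 1666 and 1497 to 2576 and 2913 (adjusted p = 0.0369). These 6 genes were picked for their shared theme after their values were seen, and no test of the theme was made. Wdr45, an autophagy protein, read 1011 and 1214 at 12 h and 2545 and 2643 at 24 h, with log2 change 1.23 (SE 0.17, adjusted p = 0.000538). Ptpre, a tyrosine phosphatase, rose from 999 and 820.2 to 1749 and 2584 with log2 change 1.23 (SE 0.17, adjusted p = 0.0007). The calls of Srsf5, Wdr45 and Ptpre held without each array. Prpf38b lost its call without any but array a of CR 24 h (adjusted p up to 0.0891), Hnrnpd, Hnrnpk and Kmt2e without any 1 of the 4 arrays (up to 0.219, 0.173 and 0.175), and H1f2 without array a of CR 12 h (up to 0.0516).

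Several of the largest changes came from dim probe sets. Lclat1, an acyltransferase of cardiolipin and other lysophospholipids, read 131 and 61.8 at 12 h and 582 and 787 at 24 h, at least 6.59-fold higher because 1 of the 2 early arrays was at the floor (adjusted p = 0.0059). Rnf20, a ubiquitin ligase for histone H2B, read 138 and 186 at 12 h and 811 and 942 at 24 h, with log2 change 2.44 (SE 0.31, adjusted p = 0.000315), but its second probe set read 369 and 449.5 and 338 and 429.5 with log2 -0.10 (adjusted p = 0.907). The 2 probe sets of Rnf20 thus disagree, and the called one carries the suffix for probes shared within a gene family, as does that of Tubb5. Abca4, a lipid transporter, read 101 and 126 at 12 h and 516 and 593 at 24 h, with log2 change 2.29 (SE 0.47, adjusted p = 0.0192). Cpsf2, of the mRNA cleavage complex, read 242 and 78.0 and 485 and 689, at least 4.15-fold higher, while its second probe set did not pass (log2 0.83, adjusted p = 0.343). Mau2, a cohesin loader subunit, read 70.1 and 136 and 508 and 273, at least 3.56-fold higher (adjusted p = 0.0266). In 5 of the 66 rises and 2 of the 36 falls the dim group had an array at the floor.

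On the falling side, Vps51, a tethering subunit in endosome-to-Golgi traffic, read 670.0 and 571 at 12 h and 87.9 and 103 at 24 h, a fall of 6.51-fold (3.58 to 11.8; adjusted p = 0.00135). Clcn7, the lysosomal chloride-proton exchanger, read 753 and 429 and 61.9 and 146, at least 5.25-fold lower (adjusted p = 0.0234), and its brighter second probe set had log2 -0.37 (adjusted p = 0.207). Cyth3, an exchange factor for ARF proteins, read 992 and 893 and 254 and 182 (log2 -2.13, adjusted p = 0.034), and its brighter probe set lay the same way without passing (log2 -0.59, adjusted p = 0.106). Cars, the cysteinyl-tRNA synthetase, read 384 and 325 at 12 h and 83.4 and 75.8 at 24 h, at least 4.31-fold lower (adjusted p = 0.0102). Wfdc21, a small whey acidic protein, fell from 478 and 456 to 170.4 and 209 with log2 change -1.31 (SE 0.27, adjusted p = 0.0178). The probe set with the smallest p of all, which carries no single gene symbol, read 4712 and 4746 at 12 h and 1318 and 1636 at 24 h (log2 -1.69, adjusted p = 1.07e-05), a call that held without each array. The calls of Rnf20 and Vps51 held without each array. Abca4 and Cyth3 lost their calls without any 1 of the 4 arrays (adjusted p up to 0.109 and 0.156 in that order), Lclat1 and Cpsf2 without array b of CR 12 h or array b of CR 24 h (up to 0.0682 and 0.0653), Mau2 and Clcn7 without array a of CR 12 h or array a of CR 24 h (up to 0.169 and 0.153), Cars without array a of CR 12 h or array b of CR 24 h (up to 0.0858), and Wfdc21 without any but array b of CR 24 h (up to 0.0923).

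Large parts of the cell's basic machinery gave no call. Of 60 oxidative phosphorylation genes, 35 ribosomal protein and translation factor genes and 32 proteasome genes 0 passed, with medians of 0.13, 0.04 and 0.16. In the cell cycle and DNA replication list 1 of 31 fell, the beta tubulin gene Tubb5, from 6461 and 5827 to 4130.3 and 3560.3 (adjusted p = 0.0274), with a second probe set at log2 -0.45 (adjusted p = 0.0695). Cdkn2b, the cell cycle inhibitor p15 and no member of that list, rose from 397 and 470.3 to 773 and 733 (adjusted p = 0.0281). Mapk8, the stress kinase JNK1, rose from 477 and 563 to 1061 and 840.1 (adjusted p = 0.0274), 1 of 29 MAP kinase genes. Tubb5 lost its call without any but array a of CR 24 h (adjusted p up to 0.156), Cdkn2b without any but array b of CR 12 h (up to 0.159), and Mapk8 without any but array b of CR 24 h (up to 0.152). Lists of cholesterol synthesis (14 genes), growth arrest, FOXO and autophagy (23), apoptosis (24), heart muscle (18) and skeletal muscle (10) had 0 calls, with medians of 0.11, 0.10, 0.10, 0.26 and -0.08. The summed signal of the 18 heart muscle genes, which mark the muscle sleeve of the pulmonary veins or attached heart, was 32934 and 31995 at 12 h and 35246 and 35560 at 24 h, and its part in the rises was not tested. A count of 0 at this threshold is not evidence of no change, since 1148 of the 7440 probe sets had an unadjusted p under 0.05.

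**Figure D4:**
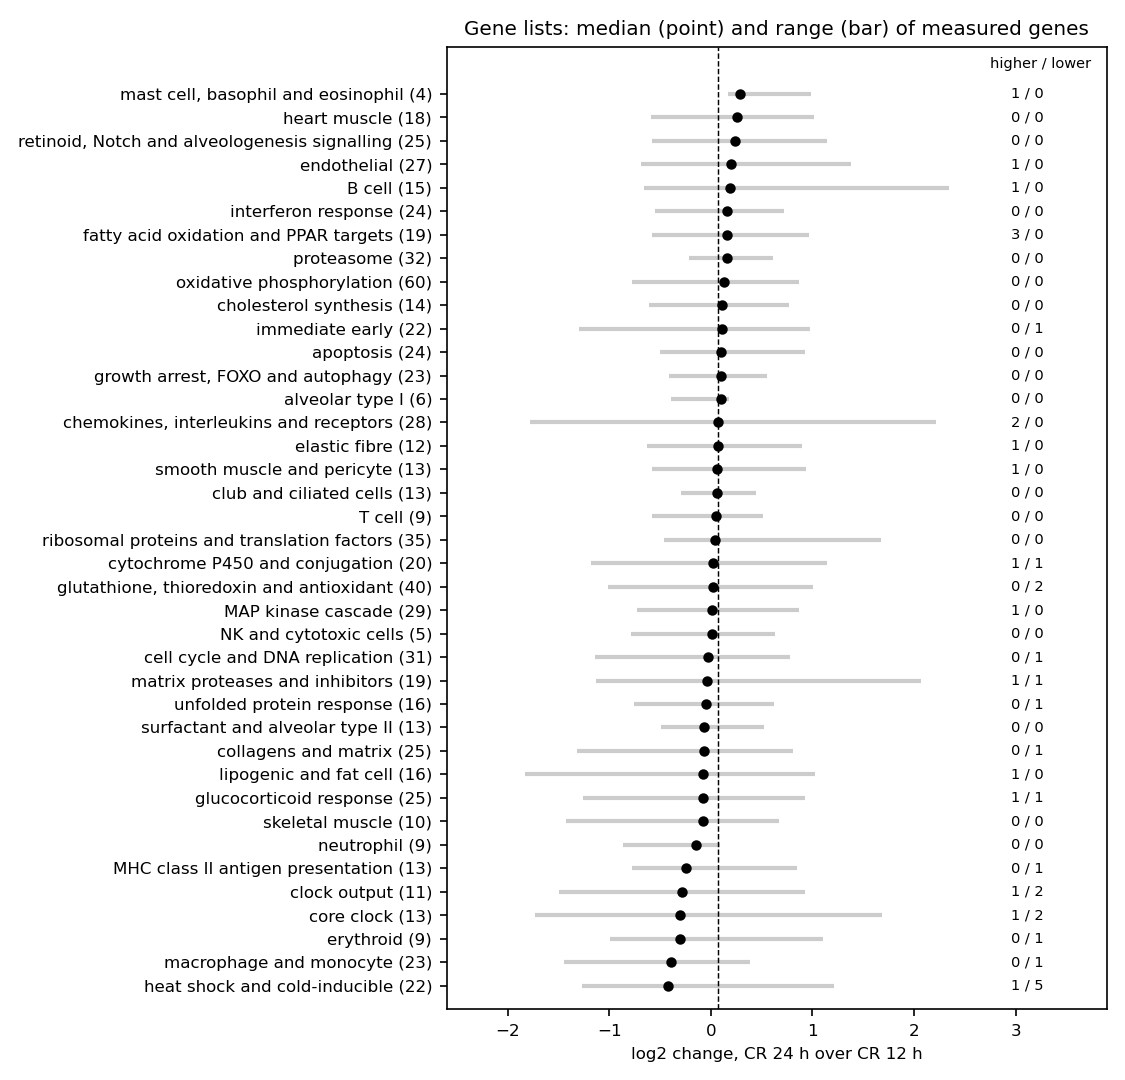
For each gene list (number of measured genes in brackets, 1 probe set per gene, the brightest) the point is the median log2 change from CR 12 h to CR 24 h, the bar runs from the lowest to the highest gene, and the figures at the right count the genes called higher and lower. The dashed line is the median of all 5706 genes, 0.07; heat shock and macrophage lists have the lowest medians.

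The other restricted lungs place the called probe sets in the time course. For 36 of the 66 rises both 12 h arrays lay below all 10 arrays of CR 2, 4, 48, 72 and 96 h, and for 8 both 24 h arrays lay above all 10. Arntl, Cirbp, Col1a1, Eln, Hdc, Pax5, Rnf20, Srsf5 and Wdr45 were among the 36, and Acta2 and Gpd1 among the 8. For 11 of the 36 falls both 12 h arrays lay above all 10, and for 9 both 24 h arrays lay below all 10. Tef, Tspan4, Hsph1 and Dnaja1 were among the 11, and Hspa8, Cd302, Timp1, Cars and Vps51 among the 9. The mean of 2 h and 4 h was nearer to that at 24 h than to that at 12 h for 30 of the 66 rises and 13 of the 36 falls, so that most of the calls lay nearer their 12 h level at the start. The mean at 48 h was nearer to that at 24 h than to that at 12 h for 49 of the 66 rises and 31 of the 36 falls, 48 h being the same time of day as 24 h by the labels. No other restricted group shares the clock hour of 12 h. The CR 4, 72 and 96 h arrays have a shorter signal range, with highest deposited signals of 31595 to 41374. The actin 3'/5' signal ratio was 3.81 and 2.69 at CR 48 h. It was 2.77 and 1.80 at CR 24 h and 1.91 and 2.04 at CR 12 h. The part of RNA integrity in the 48 h count was not tested. The counts of this paragraph describe the called probe sets and were not tested. Those probe sets were picked for a difference between 12 h and 24 h. An extreme level at 12 h or 24 h is thus in part built in by the choice. The same counts over all tested probe sets are not given here. The counts therefore cannot show whether 12 h or 24 h was a trough or peak of the time course.

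Fed lung at the same 2 labelled times of day, 12 h and the earlier 0 h, was set beside these changes. It shares no array with the CR comparison. From fed 12 h to fed 0 h number 1, 2304 of the 7440 probe sets (31%) were called, 1227 higher (16.5%) and 1077 lower (14.5%). Without array a of fed 12 h the count was 1221, and with the deposited scaling 43.1% of the calls were rises in place of 53.3%. With fed 0 h number 2 in place of number 1, 649 (8.72%) were called, 372 higher and 277 lower. Of the 66 rises in restricted lung, 17 were also called higher with number 1 and 24 with number 2. Of the 36 falls, 17 were called lower with number 1 and 18 with number 2. As a share of the fed calls of that direction these overlaps were 1.39% and 6.45% for the rises and 1.58% and 6.50% for the falls. In the opposite direction to the restricted change, 4 rises and 4 falls were called with number 1, and 0 and 1 with number 2. Across the 102 called probe sets the changes in restricted and fed lung correlated at r = 0.289 with number 1 and r = 0.641 with number 2, and across all 7440 at r = 0.0477 and r = 0.301. These are correlations across probe sets of the same arrays, which are not independent replicates.

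Over all 7440 probe sets, 247 were called with each fed number, in either direction. The 2 fed comparisons share the arrays of fed 12 h, so they are not independent. Of the restricted calls, 7 rises and 12 falls were called in the same direction with each fed number. The rises held Arntl, Cirbp, Hdc, Wdr45 and Cdkn2b and 2 probe sets without a single symbol. The falls held Nr1d2, Tspan4, Hspa1b, Hspa8, Dnaja1, Fkbp5, Herpud1, Ccn2, Alas2, Cyth3 and Ifi30 and the probe set with the smallest p. Arntl read 343 and 268 in fed lung at 12 h, 567 and 544 at 0 h number 1 and 668 and 662 at 0 h number 2, below the 861 and 863 of restricted lung at 24 h. Nr1d2 read 1273 and 939 in fed lung at 12 h, then 484 and 333 and 543 and 312 at 0 h. Cirbp read 1062 and 1086 at fed 12 h, then 2444 and 2479 and 2006 and 2017. Restricted or fed, these clock and temperature genes had the same sign of change, with fed 0 h taken as 24 h. Hspa1b read 1334 and 1165 in fed lung at 12 h, 213 and 125 at 0 h number 1 and 418 and 431 at number 2. Its fall was larger in fed lung with number 1, by 1.66 on the log2 scale (adjusted p = 0.0079), and the difference was 0.28 with number 2 (adjusted p = 0.823). Fkbp5 read 1538 and 1522 at fed 12 h and 279 and 221 or 358 and 487 at fed 0 h, so that every fed reading was below every restricted reading of its hour. The difference of its changes was 1.37 with number 1 (adjusted p = 0.00349) and 0.62 with number 2 (adjusted p = 0.386).

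The difference between the restricted and the fed change was then tested directly. With fed 0 h number 1, 1233 of the 7440 probe sets (16.6%) differed, 690 with the higher change in restricted lung (9.27%) and 543 with the lower (7.3%). The count was 650 without array a of fed 12 h, 691 without array b of CR 12 h, 701 without array b of CR 24 h and 818 without array b of fed 0 h number 1. The 1233 included 33 of the 66 rises and 15 of the 36 falls. Those calls were picked by their restricted change, which is part of the difference, so these counts cannot be read against the 16.6%. With fed 0 h number 2, 15 (0.202%) differed, 1 of the rises and 1 of the falls among them. These 2 were Rnf20 and Cars, the only calls that differed from fed lung with both numbers. The 2 tests share the arrays of CR and of fed 12 h. Cars fell in restricted lung and rose in fed lung, where it read 82.6 and 75.6 at 12 h, 412 and 299 at 0 h number 1 and 260.3 and 536 at number 2. The difference of its log2 changes was -4.22 with number 1 (adjusted p = 0.000287) and -4.31 with number 2 (adjusted p = 0.000828), with 1 of the 2 arrays of CR 24 h and of fed 12 h at the floor. Rnf20 read 702 and 735 in fed lung at 12 h, 571 and 996 at 0 h number 1 and 485 and 1110.4 at number 2, with differences of 2.37 (adjusted p = 0.00197) and 2.41 (adjusted p = 0.0229). Pax5 differed with number 1 by 2.37 (adjusted p = 0.000725) and missed the threshold with number 2 at 1.78 (adjusted p = 0.0529).

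For Igha and Pdk4, which rose in restricted lung, the test of the difference passed with number 1 and not with number 2. Igha read 596 and 589 in fed lung at 12 h, 606 and 677 at 0 h number 1 and 539 and 741 at number 2, with differences of 1.17 (adjusted p = 0.00745) and 1.19 (adjusted p = 0.0907). Pdk4 read 295 and 425 at fed 12 h, 178 and 252 at 0 h number 1 and 352 and 379 at number 2, with differences of 1.67 (adjusted p = 0.00168) and 0.88 (adjusted p = 0.257). For Cp and Col1a1 the 2 fed numbers themselves stood apart. Cp read 2335 and 2378 at fed 12 h, 2693 and 2012 at number 1 and 6938 and 6051 at number 2, with differences of 1.09 (adjusted p = 0.00371) and -0.39 (adjusted p = 0.51). Col1a1 read 1323 and 1205 at fed 12 h, 1433 and 1335 at number 1 and 3504 and 3371 at number 2, with differences of 0.92 (adjusted p = 0.00586) and -0.40 (adjusted p = 0.45). Hsd11b1 had a difference of -1.71 with number 1 (adjusted p = 0.000814) and 0.27 with number 2 (adjusted p = 0.74). Which of the 2 fed 0 h numbers better stands for fed lung cannot be told apart from these arrays.

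**Figure D5:**
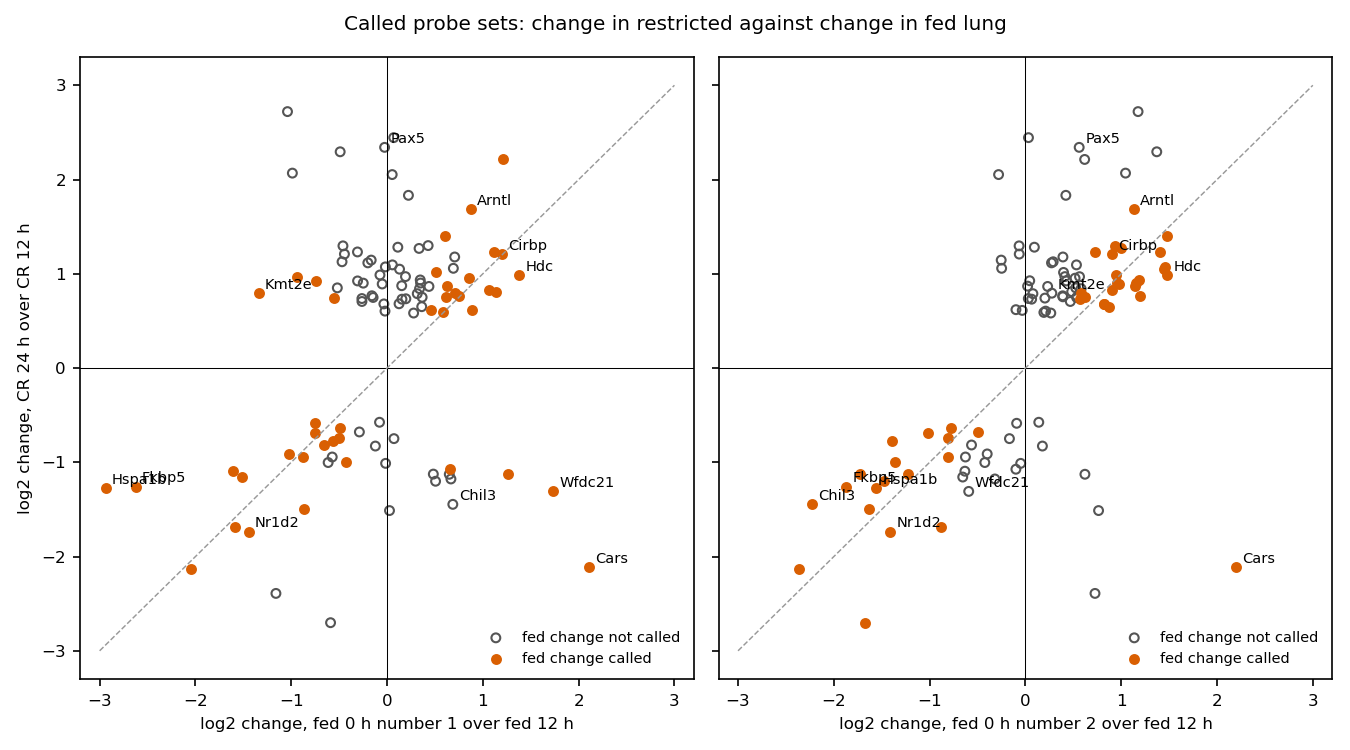
For the 102 probe sets called in restricted lung, the log2 change from CR 12 h to CR 24 h is plotted against the log2 change from fed 12 h to fed 0 h, with number 1 at the left and number 2 at the right; filled points are called in the fed comparison too, and the dashed line marks equal change. Points lie nearer the line with number 2 (r = 0.641) than with number 1 (r = 0.289), and Cars lies off it in both panels.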

How the data were processed

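Per the labels, RNA of whole mouse lung was hybridised to MG-U74Av2 arrays. The authors deposited 1 table of linear signal intensity for 24 arrays, and the sources used here do not name the software behind them. The 1 sample of another platform was not used. Of 12488 probe sets 66 controls were left out, and of the other 12422 platform annotation gave 10833 a single gene symbol, 396 several and 1193 none, of which 10817 single symbols matched RefSeq. Each array was scaled to a common median, values below the 25th percentile of all scaled values (80.4) were raised to it, and 7440 probe sets that reached the array median on at least 2 arrays were tested on the log2 scale with limma 3.58.1 in R 4.3.3 (12 group means, 24 arrays, 12 residual degrees of freedom, empirical Bayes with an intensity trend). All adjusted p-values are two-sided, by the Benjamini-Hochberg method over all 7440. The scripts were tested on simulated data. Depth has no meaning for arrays, and the 2 arrays in a group limit the precision. Lists use the brightest probe set of each gene, and their counts and medians have no test.

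The comparison and the gene lists were chosen with earlier results of these data known. Genes were drawn from sets made by rule. These were the 15 largest rises and falls of called probe sets and the 6 smallest p of the difference in each direction. Further sets were the 6 largest rises and falls shared with fed lung, and up to 4 genes of each list by p. The core clock genes and a few fixed genes were added. Not every gene of these sets is in the text. Differences from fed lung are given above only for genes also called in restricted lung. Gpaa1 was not called there (adjusted p = 0.445) and is left out above. Its change differed with number 1 by 2.40 (adjusted p = 7.88e-05). The other called genes in the text were named after their values were seen. Whether letters pair arrays across groups was checked by correlating the deviations of array a between groups (r from -0.075 to 0.044). Such values cannot show whether arrays of the same letter were handled together. Alternatives covered scaling, floor, filter, spread model, array weights, groups in the fit, the fed 0 h numbers, the letter as a block and each array left out.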

Additional observations from a re-analysis of the deposited data

Results flagged for a closer look

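Of 71 probe sets called in restricted lung and carrying a gene named above, 34 changed differently in fed lung. Fed 0 h number 1 was taken as 24 h in this test of the difference (adjusted p under 0.05 over all 7440 probe sets). There were 24 with the higher change in restricted lung and 10 with the lower. Over all 7440 probe sets 16.6% differed in this test. The 71 were picked by their restricted change, which is part of the difference, so the 2 shares cannot be compared. In 2 of the 34, Rnf20 and Cars, the difference also passed with fed 0 h number 2. Each value below is the log2 change in restricted lung minus that in fed lung, with number 1 first. Among stress, hormone and fuel genes the changes differed in Serpinh1 by -0.82 (adjusted p = 0.0359; number 2 -0.58, 0.384), Hspa1b by 1.66 (adjusted p = 0.0079; number 2 0.28, 0.823), Fkbp5 by 1.37 (adjusted p = 0.00349; number 2 0.62, 0.386), Hsd11b1 by -1.71 (adjusted p = 0.000814; number 2 0.27, 0.74), Pdk4 by 1.67 (adjusted p = 0.00168; number 2 0.88, 0.257), Acot1 by 0.78 (adjusted p = 0.0418; number 2 0.56, 0.386) and Gpd1 by 1.06 (adjusted p = 0.0295; number 2 0.04, 0.977). Among matrix, protease and signalling genes the changes differed in Col1a1 by 0.92 (adjusted p = 0.00586; number 2 -0.40, 0.45), Timp1 by -1.78 (adjusted p = 0.00451; number 2 -1.75, 0.0764), Adam8 by 3.06 (adjusted p = 0.00481; number 2 1.02, 0.558), Fzd2 by 1.65 (adjusted p = 0.00605; number 2 1.27, 0.205) and Ptpre by 1.54 (adjusted p = 0.000814; number 2 -0.18, 0.825). Among immune genes the changes differed in Cd302 by -2.39 (adjusted p = 7.88e-05; number 2 0.10, 0.918), Chil3 by -2.13 (adjusted p = 0.00586; number 2 0.79, 0.529), Igha by 1.17 (adjusted p = 0.00745; number 2 1.19, 0.0907), Il6st by 1.30 (adjusted p = 0.00105; number 2 0.54, 0.344) and Pax5 by 2.37 (adjusted p = 0.000725; number 2 1.78, 0.0529). Among enzymes and epithelial genes the changes differed in Cyp1a1 by -1.84 (adjusted p = 0.004; number 2 -0.86, 0.386), Gsta3 by -0.996 (adjusted p = 0.0106; number 2 -0.96, 0.143), Aldh3a1 by 0.71 (adjusted p = 0.0464; number 2 -0.14, 0.87), Abcc3 by 1.15 (adjusted p = 0.00897; number 2 -0.25, 0.777), Cp by 1.09 (adjusted p = 0.00371; number 2 -0.39, 0.51) and Krt18 by 1.23 (adjusted p = 0.00344; number 2 0.50, 0.439). Among RNA-processing and chromatin genes the changes differed in Srsf5 by 0.87 (adjusted p = 0.0382; number 2 0.37, 0.636), Hnrnpd by 0.94 (adjusted p = 0.0352; number 2 -0.09, 0.939), Prpf38b by 1.60 (adjusted p = 0.00289; number 2 0.84, 0.315), Kmt2e by 2.13 (adjusted p = 0.000134; number 2 0.52, 0.434), Cpsf2 by 2.00 (adjusted p = 0.0124; number 2 2.33, 0.0764) and Rnf20 by 2.38 (adjusted p = 0.00197; number 2 2.41, 0.0229). Among other genes the changes differed in Cars by -4.22 (adjusted p = 0.000287; number 2 -4.31, 0.000828), Wfdc21 by -3.05 (adjusted p = 0.000134; number 2 -0.72, 0.459), Vps51 by -2.11 (adjusted p = 0.0186; number 2 -1.02, 0.499), Abca4 by 2.78 (adjusted p = 0.00842; number 2 0.92, 0.613) and Lclat1 by 3.76 (adjusted p = 0.00185; number 2 1.54, 0.386). No group holds 4 or more arrays, so single arrays could not be tested for standing apart.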

How the results depend on the processing

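With 2 arrays in a group, the counts of calls depended on the estimate of the spread more than on the scaling. In restricted lung, 102 probe sets were called as reported, 40 with array weights, 67 with only the CR groups in the fit, 35 with only the 12 arrays of the high signal range, 18 with the fed 0 h numbers pooled and 1 with only the 4 arrays compared. Leaving out 1 array gave 48 to 89 calls. In fed lung, 2304 were called as reported, 1458 with only the 4 arrays compared, 143 with the numbers pooled and 649 with number 2, and leaving out 1 array gave 1221 to 2141. The difference of the changes gave 1233 as reported, 665 with only the arrays compared, 1 with the numbers pooled and 15 with number 2, and leaving out 1 array gave 650 to 1324. With the letter as a replicate block the 3 counts were 91, 2299 and 1220. Deviations of same-lettered arrays correlated at r = 0.044 between CR 12 h and CR 24 h. The 6 pairs of groups ranged from -0.075 to 0.044, which cannot show how the arrays were handled. Probe sets with no array of CR 12 h or CR 24 h at the floor, an alternative chosen after seeing the data, gave 91 calls. All other alternatives run kept these 3 counts within 1.5 times. No called probe set changed direction under the alternatives run. Among uncalled ones the sign turned when 1 array was left out, where the log2 change ran from -0.27 to 0.07755 for the second probe set of Rnf20, from -0.14 to 0.61 for the brightest of Col1a1, from -0.29 to 0.0333 for Zbtb16, from -0.32 to 0.95 for Tpsb2 and from -0.21 to 0.06856 for Sftpc. Dim signal limits the fold of genes with arrays at the floor to a lower bound.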
